A study of Mus musculus with 6 samples.

Results

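The 10 genes described here handle fatty acids on their way into muscle and into and out of its lipid droplets: Cd36, Lpl and Angptl4 for uptake, Pnpla2, Lipe, Mgll and Ces1d for the breakdown of stored fat, and Plin2, Plin4 and Plin5 for the droplet coat. They were chosen by symbol from the deposited table of read counts, in which all 10 had values, among 17034 genes with values and 74693 listed features. All 10 passed the filter on low counts, as did 13118 genes in all, and their counts were whole numbers in every library, so no reads of theirs were shared out among features. RNA came from the gastrocnemius, a calf muscle of mixed fibre type, taken from male mice at 8 weeks of age kept on standard chow without drug or dietary treatment. The 3 mice labelled TRa_mKO carried floxed Thra alleles (Thra fl/fl), the gene of thyroid hormone receptor alpha, and a Myf5-Cre transgene. The 3 mice labelled WT were littermates with the same floxed alleles and no Cre. Cre from Myf5 acts in cells of the myogenic lineage from the embryo on, so vessel, blood and connective tissue cells in the same muscle sample fall outside that lineage for the most part. Visible fat was trimmed from the muscles before freezing, per the labels' protocols.

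Muscle takes up fatty acids from the blood after lipoprotein lipase (Lpl), bound to the capillary wall, has released them from circulating lipoproteins. The transporter CD36 then carries them into the fibre, where they are burned or stored as triglyceride in droplets. Stored triglyceride is cut in steps by adipose triglyceride lipase (Pnpla2), hormone-sensitive lipase (Lipe) and monoacylglycerol lipase (Mgll), while perilipins on the droplet surface govern access of the lipases. Thyroid hormone is known to raise fat turnover in muscle, and many genes of this route respond to the fatty acid receptors of the PPAR family.

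Libraries held 12390527 to 14488500 counts, and every pair of them differed by more than counting noise (chi-square per degree of freedom 7.77 or higher). Thra itself measured 129, 118 and 101 CPM in libraries labelled TRa_mKO and 78.8, 92.8 and 96.8 CPM in WT libraries, where CPM is the count scaled to a common library size with TMM factors. The labelled loss of Thra was therefore not visible as a lower count (log2 fold change 0.37, SE 0.12, edgeR adjusted p = 0.117). A count over the whole gene does not check which exons were lost, and every direction below rests on the labels. Markers of skeletal muscle fibres made up 142178 to 160893 CPM in libraries labelled TRa_mKO and 111671 to 150898 CPM in WT libraries, which fits the labelled tissue. Over all 13118 genes tested, 331 were called higher and 216 lower in libraries labelled TRa_mKO (4.17% called in either direction) at an adjusted p below 0.05. Those totals moved by more than 1.5 times without the library labelled TRa_mKO replicate 2 (135 higher, 74 lower), without TRa_mKO replicate 3 (139 lower), without WT replicate 2 (179 higher) and without WT replicate 3 (187 higher, 123 lower). On all libraries the tool DESeq2 called 461 genes higher and 301 lower, and limma-voom 311 higher and 197 lower. How many of all tested genes had an unadjusted p below 0.05 was not counted, so such counts below stand without a background.

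Of the 10 genes, Angptl4 rose and Ces1d fell in muscle labelled TRa_mKO, and the other 8 did not pass the test. That is 1 of 10 higher against a background of 2.52% of all tested genes, and 1 of 10 lower against 1.65%. The 10 were chosen with earlier results of these data known, so these shares do not test them as a set. The median log2 fold change over the 10 was 0.15, against -0.000316 over all genes tested, and 6 of the 10 were above 0. For Angptl4, Plin5 and Ces1d the libraries of the genotypes did not overlap, which held for 23.2% of all tested genes. The count of calls among the 10 was 3 without WT replicate 1, and 1 without TRa_mKO replicate 2, WT replicate 2 or WT replicate 3.

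**Figure D1:**
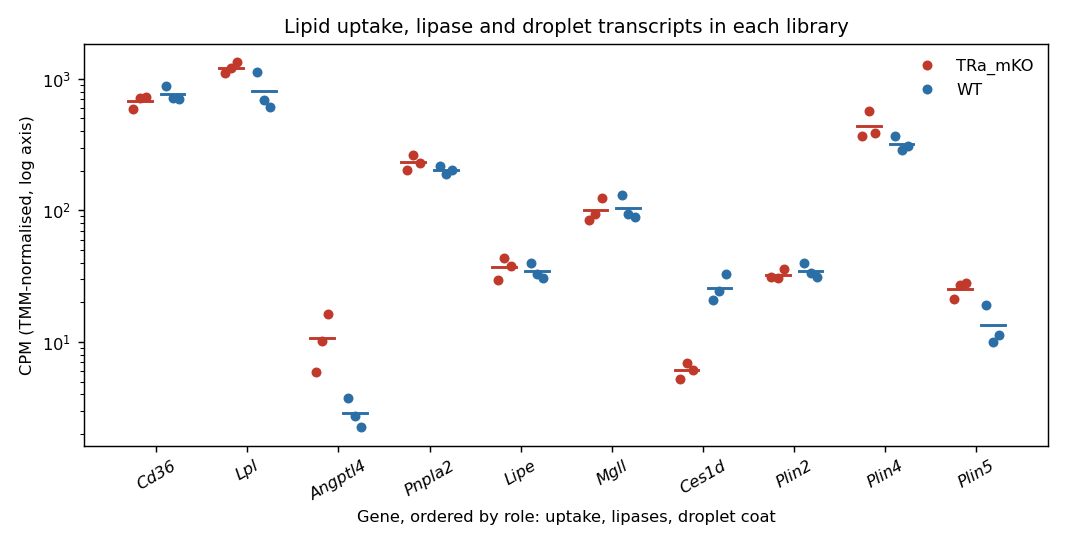
Level of each gene in every library, in TMM-normalised CPM on a log axis, with the libraries labelled TRa_mKO left of the WT libraries for each gene; points are single libraries and bars are means of 3. Ces1d lies between 5.20 and 6.94 CPM in libraries labelled TRa_mKO and between 20.7 and 32.8 CPM in WT libraries. Cd36, Lpl, Pnpla2, Lipe, Mgll, Plin2 and Plin4 overlap between genotypes.

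**Figure D2:**
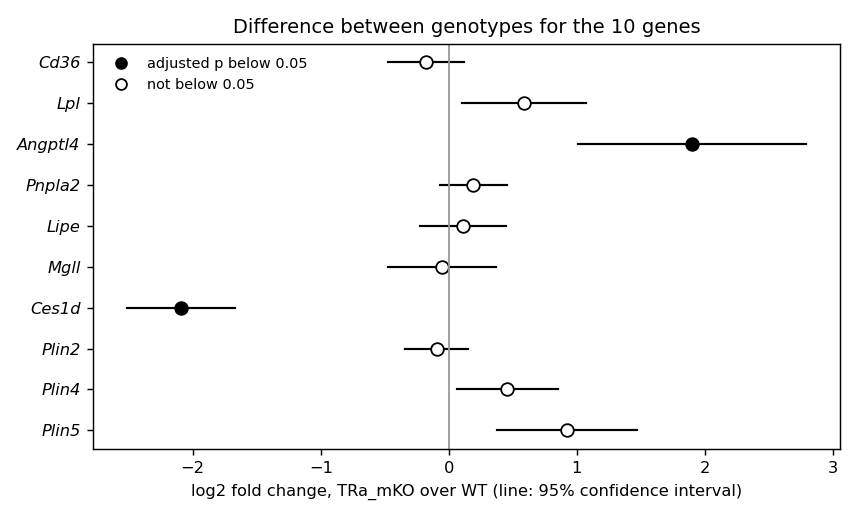
Log2 fold change of each gene, TRa_mKO over WT, with its 95% interval, a confidence interval from the edgeR fit over all genes; filled points had an adjusted p below 0.05. The intervals of Lpl, Plin4 and Plin5 lie above 0, but their p-values did not pass adjustment over all genes.

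Angptl4 encodes a secreted protein that inhibits lipoprotein lipase and is induced by fasting and fatty acids. Its level was 5.93, 10.2 and 16.2 CPM in libraries labelled TRa_mKO and 3.74, 2.71 and 2.24 CPM in WT libraries. Every library labelled TRa_mKO lay above every WT library, and the libraries labelled TRa_mKO ranged widely among themselves. Angptl4 (gene ID 57875) averaged 10.8 ± 5.16 CPM in libraries labelled TRa_mKO and 2.90 ± 0.767 CPM in WT libraries (SD, n = 3 each), a 3.73-fold increase (log2 fold change 1.90, SE 0.38, 95% interval 1.01 to 2.79, edgeR adjusted p = 0.0382). The raw counts behind it were 81, 126 and 234 in libraries labelled TRa_mKO and 50, 35 and 34 in WT libraries, so it was a low transcript in both. The direction held in all 16 alternative settings (log2 fold change 1.47 to 2.20), and the call held in 7 of them. It ended without TRa_mKO replicate 2 (adjusted p = 0.112), WT replicate 1 (0.0722), WT replicate 2 (0.129) or WT replicate 3 (0.120), and with the replicate number as a block (0.0920).

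Lpl, the lipase on which Angptl4 acts, was among the most abundant of the 10. It measured 1099, 1200.3 and 1336 CPM in libraries labelled TRa_mKO and 1122, 688 and 615 CPM in WT libraries. A single WT library, replicate 1, reached the range of the libraries labelled TRa_mKO, and the other two lay well below it. Lpl (gene ID 16956) averaged 1212 ± 119 CPM in libraries labelled TRa_mKO and 808 ± 274 CPM in WT libraries (SD, n = 3 each), with a log2 fold change of 0.58 (SE 0.21, 95% interval 0.10 to 1.07, adjusted p = 0.188), and did not pass. Without WT replicate 1 the difference was 0.89 and passed (adjusted p = 0.0118), and DESeq2 called it on all libraries (adjusted p = 0.0356).

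Cd36, the fatty acid transporter, did not pass the test. It measured 585, 714 and 732 CPM in libraries labelled TRa_mKO and 878, 713 and 705 CPM in WT libraries, and the groups overlapped. Its log2 fold change was -0.18 (SE 0.13, adjusted p = 0.539), and the 95% interval of -0.47 to 0.12 does not include an increase as large as the estimate for Lpl.

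The 3 lipases that take stored triglyceride apart in sequence showed overlapping levels. Pnpla2, which removes the first fatty acid, measured 204, 265 and 227 CPM in libraries labelled TRa_mKO and 218, 189.8 and 201 CPM in WT libraries (log2 fold change 0.19, 95% interval -0.07 to 0.45, adjusted p = 0.430). Lipe, which takes the second, measured 29.4, 43.7 and 37.7 CPM in libraries labelled TRa_mKO and 39.5, 32.8 and 30.6 CPM in WT libraries (0.11, interval -0.23 to 0.44, adjusted p = 0.775). Mgll, which takes the last, measured 84.8, 93.3 and 124 CPM in libraries labelled TRa_mKO and 131, 93.9 and 89.0 CPM in WT libraries (-0.05, interval -0.47 to 0.37, adjusted p = 0.929). None of the 3 intervals reached a log2 fold change of 0.5 in either direction, and none of the 3 passed in any of the 16 alternatives. The sign of Lipe and of Mgll turned when single libraries were left out.

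Ces1d fell in muscle labelled TRa_mKO. It encodes a carboxylesterase of the endoplasmic reticulum, known in mouse liver and fat as a triacylglycerol hydrolase. Its level was 5.20, 6.94 and 6.16 CPM in libraries labelled TRa_mKO and 20.7, 24.2 and 32.8 CPM in WT libraries. The libraries labelled TRa_mKO were close together, and the lowest WT library stood well above all of them. Ces1d (gene ID 104158) averaged 6.10 ± 0.872 CPM in libraries labelled TRa_mKO and 25.9 ± 6.24 CPM in WT libraries (SD, n = 3 each), a log2 fold change of -2.09 (SE 0.19, 95% interval -2.51 to -1.67, adjusted p = 0.000446). The call held in all 16 alternatives, with log2 fold changes of -2.24 to -1.88 and adjusted p of at most 0.00835.

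Ces1d sits in a cluster of carboxylesterase genes on chromosome 8, where Ces1e is its immediate protein-coding neighbour in the RefSeq gene table (GRCm38.p6). Of 18 other carboxylesterases listed, 13 had values and 2 passed the filter on low counts, and edgeR called 0 of these in either direction. At an unadjusted p below 0.05 the count was also 0, as it was with DESeq2 and with limma-voom. The pair tested were Ces2b (1.68 ± 0.515 CPM in libraries labelled TRa_mKO and 1.55 ± 0.343 CPM in WT libraries, adjusted p = 0.898, shared reads) and Ces2g (0.680 ± 0.240 and 0.650 ± 0.104 CPM in the same order, adjusted p = 0.952). The neighbour Ces1e, named after its values were seen, had 0 counts in each library labelled TRa_mKO and 6, 5 and 5 counts in WT libraries. Set against a limit of 3 counts over the libraries labelled TRa_mKO, the 16 counts over the WT libraries were 5.22-fold higher in CPM. That ratio allows for counting error in libraries labelled TRa_mKO only. It covers neither the counting error of the WT counts nor the spread between mice. It stayed under the filter on low counts, and it was called without that filter. Ces1f, the next gene along, had 1, 7 and 9 counts in libraries labelled TRa_mKO and 2, 7 and 9 counts in WT libraries.

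**Figure D3:**
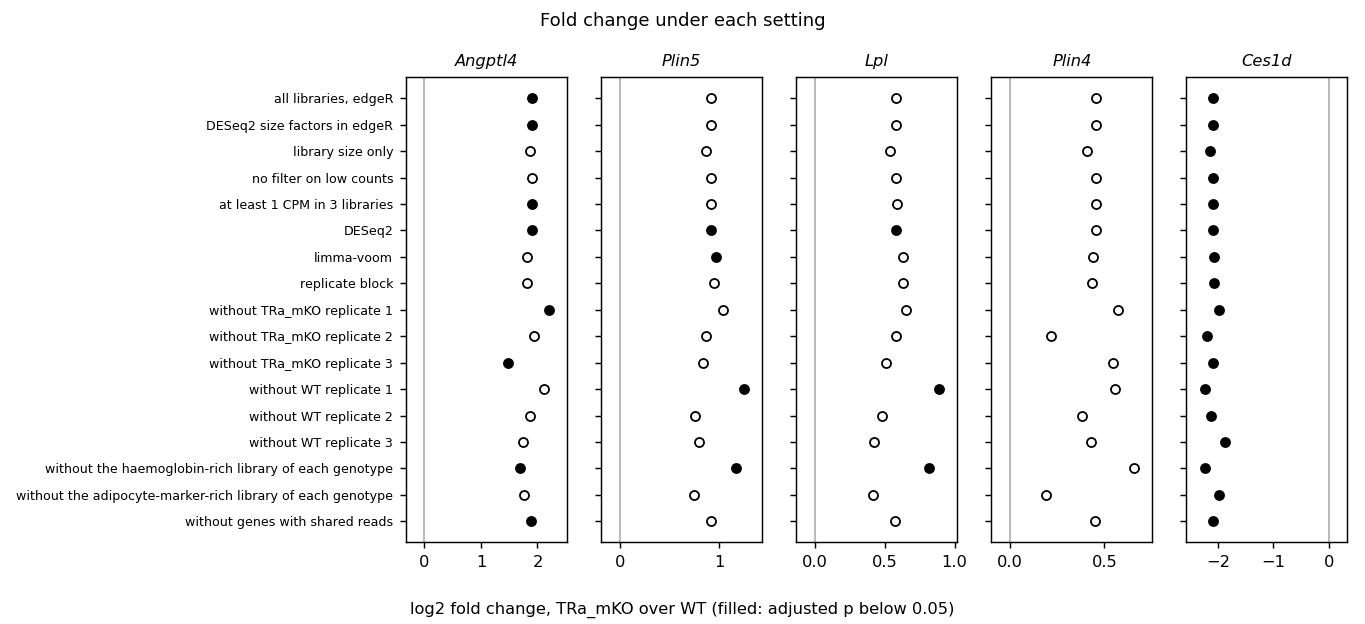
Log2 fold change, TRa_mKO over WT, of 5 genes under each of the 16 alternative settings and with all libraries; filled points had an adjusted p below 0.05, and each panel has its own axis. Ces1d is filled in every row, Angptl4 in 8 of the 17, and Plin4 in none.

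The perilipins of the droplet coat did not move as a family. Plin5, the perilipin of oxidative tissues that tethers droplets to mitochondria, measured 21.2, 27.0 and 28.2 CPM in libraries labelled TRa_mKO and 19.1, 10.1 and 11.2 CPM in WT libraries. The groups did not overlap, although WT replicate 1 came close to the lowest library labelled TRa_mKO. Plin5 (gene ID 66968) averaged 25.4 ± 3.74 CPM in libraries labelled TRa_mKO and 13.5 ± 4.91 CPM in WT libraries (SD, n = 3 each), a log2 fold change of 0.92 (SE 0.24, 95% interval 0.37 to 1.47), and missed the threshold (adjusted p = 0.0807). It passed without WT replicate 1 (log2 fold change 1.24, adjusted p = 0.00400), with DESeq2 (0.00168) and with limma-voom (0.0420).

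Plin4, a large perilipin of fat and muscle droplets, measured 368, 571 and 385 CPM in libraries labelled TRa_mKO and 369, 286 and 310 CPM in WT libraries. The library labelled TRa_mKO replicate 2 stood above all others, and the remaining libraries overlapped. Its log2 fold change was 0.46 (SE 0.18, 95% interval 0.06 to 0.85, adjusted p = 0.202), and it was 0.22 without TRa_mKO replicate 2. Plin2, the perilipin found on droplets of most cell types, measured 30.9, 30.6 and 36.0 CPM in libraries labelled TRa_mKO and 39.5, 33.5 and 31.3 CPM in WT libraries (-0.10, interval -0.34 to 0.15, adjusted p = 0.716). Plin3, the remaining widespread perilipin and one of the related genes listed with the 10, fell. It measured 15.7, 17.2 and 17.5 CPM in libraries labelled TRa_mKO and 37.9, 31.2 and 28.1 CPM in WT libraries (adjusted p = 0.00271, with a log2 fold change of -0.95 and an SE of 0.12). Plin3 was called in all 16 alternatives.

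Plin4 and Plin5 are adjacent protein-coding genes on chromosome 17, and 7 protein-coding genes lie between Plin5 and Plin3 in the RefSeq gene table. Their start regions are shown because Plin3 fell while the estimates of Plin4 and Plin5 lay above 0, and because thyroid hormone receptors and PPAR proteins, each with RXR, bind repeats of the hexamer AGGTCA. Sequences are from RefSeq (GRCm38.p6), run from 250 bases before to 50 bases after an annotated start, and were found for 7 of the 10 genes, in 10 windows, with no entry used for Lpl, Angptl4 or Ces1d. Capitals mark AGGTCA or its reverse complement TGACCT. Plin5 has windows at a pair of starts, which share 50 bases.
Plin5 (chr17:56117499-56117798, minus strand): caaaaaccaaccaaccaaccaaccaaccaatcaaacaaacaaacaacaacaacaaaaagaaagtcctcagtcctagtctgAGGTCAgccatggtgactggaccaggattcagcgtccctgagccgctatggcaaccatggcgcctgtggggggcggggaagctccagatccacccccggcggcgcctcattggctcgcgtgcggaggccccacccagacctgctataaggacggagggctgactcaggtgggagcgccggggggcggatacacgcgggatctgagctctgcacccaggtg
Plin5 (chr17:56117249-56117548, minus strand): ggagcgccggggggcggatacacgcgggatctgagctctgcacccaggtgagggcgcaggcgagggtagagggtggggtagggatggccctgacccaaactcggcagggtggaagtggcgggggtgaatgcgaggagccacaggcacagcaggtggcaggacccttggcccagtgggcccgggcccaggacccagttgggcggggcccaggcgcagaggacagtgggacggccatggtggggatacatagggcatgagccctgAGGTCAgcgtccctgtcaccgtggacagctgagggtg
Plin4 (chr17:56109733-56110032, minus strand): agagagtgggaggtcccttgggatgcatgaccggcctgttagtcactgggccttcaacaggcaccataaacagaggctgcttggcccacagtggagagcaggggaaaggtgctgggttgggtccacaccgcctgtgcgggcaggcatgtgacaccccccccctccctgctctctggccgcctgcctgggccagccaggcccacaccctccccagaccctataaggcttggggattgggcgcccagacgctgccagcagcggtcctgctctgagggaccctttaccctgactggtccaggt
Plin3 (chr17:56290462-56290761, minus strand): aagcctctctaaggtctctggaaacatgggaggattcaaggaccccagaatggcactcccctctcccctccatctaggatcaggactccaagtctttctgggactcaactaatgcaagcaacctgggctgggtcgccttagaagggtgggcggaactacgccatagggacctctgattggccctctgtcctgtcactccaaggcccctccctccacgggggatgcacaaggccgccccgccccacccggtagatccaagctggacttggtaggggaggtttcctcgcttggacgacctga
Plin2 (chr4:86670010-86670309, minus strand): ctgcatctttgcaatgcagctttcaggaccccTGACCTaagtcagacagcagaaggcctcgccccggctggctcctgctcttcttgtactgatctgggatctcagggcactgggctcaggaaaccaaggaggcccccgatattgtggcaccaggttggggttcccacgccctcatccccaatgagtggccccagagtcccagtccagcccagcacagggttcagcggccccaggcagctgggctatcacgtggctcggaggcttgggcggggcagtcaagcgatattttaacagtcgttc

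The hexamer was searched on both strands, and 4 of the 10 windows of these genes held it: both of Plin5, and those of Plin2 and Cd36. Over all 32851 RefSeq windows of this length, 16.3% held it. Pairs of the hexamer in the same direction were in 0 of the 10 windows: those with 1 base between them (in 0.0396% of all windows), those with 4 bases between them (0.0152%), and those with 1 base between them and any base at the fourth position of each hexamer (0.381%). A pair of exact hexamers also counts as a match of the single hexamer.

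In a sample of whole muscle, fewer cells of a type and less RNA per cell cannot be told apart. Slow fibre genes, a list of 12 added after the data were seen, summed to 5376, 5690 and 7775 CPM in libraries labelled TRa_mKO and 3103, 1461 and 1456 CPM in WT libraries. In that list edgeR called 5 of 12 higher and 0 lower, and none was at 0. Over all tested genes 2.52% were called higher and 1.65% lower. Since the list was picked with the values known, its counts describe it and are no test. The count of higher genes was 11 at an unadjusted p below 0.05, 10 by DESeq2, 11 by limma-voom and 2 by edgeR without the filter on low counts, and the count of lower genes was 0 in each. WT replicate 1, the WT library highest in slow fibre genes, was also the highest WT library for 9 of the 10 genes, all but Ces1d. The part of the slow fibre genes in these differences was not tested. The same library was high in red blood cell markers, which summed to 710.2, 917 and 1621 CPM in libraries labelled TRa_mKO and 1763, 589.6 and 458 CPM in WT libraries, and the part of these was not tested either.

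Adipocyte markers were low, and the 7 listed summed to 31.0, 57.8 and 25.5 CPM in libraries labelled TRa_mKO and 38.3, 39.8 and 45.0 CPM in WT libraries. None of the 7 was at 0 in all libraries, and edgeR called 0 of the 6 tested in either direction (0 at an unadjusted p below 0.05, 0 by DESeq2, 0 by limma-voom). The library labelled TRa_mKO replicate 2, highest in adipocyte markers, was also highest in Plin4, Pnpla2 and Lipe. With the library highest in adipocyte markers left out of each genotype (TRa_mKO replicate 2 and WT replicate 3), the log2 fold change was 0.19 for Plin4 and 1.77 for Angptl4 (adjusted p = 0.722 and 0.270), and Ces1d still passed at -1.99 (adjusted p = 0.00835). That fit had fewer samples and called 71 genes in all, against 547 with all libraries.

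Capillary endothelial markers, from the cells on which Lpl is anchored, summed to 862, 980.2 and 1180 CPM in libraries labelled TRa_mKO and 1395, 1289 and 1134 CPM in WT libraries. EdgeR called 0 of the 9 in either direction, while 4 were lower at an unadjusted p below 0.05, and DESeq2 called 1 lower and limma-voom 0. Macrophage and fibroblast markers, of 8 and 5 genes, had 0 edgeR calls, with 1 macrophage gene lower and 1 fibroblast gene higher at an unadjusted p below 0.05. DESeq2 called that number for fibroblasts and 0 for macrophages, and limma-voom 0 for both. Their part in the levels of Cd36, which endothelial cells and macrophages also express, was not tested.

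**Figure D4:**
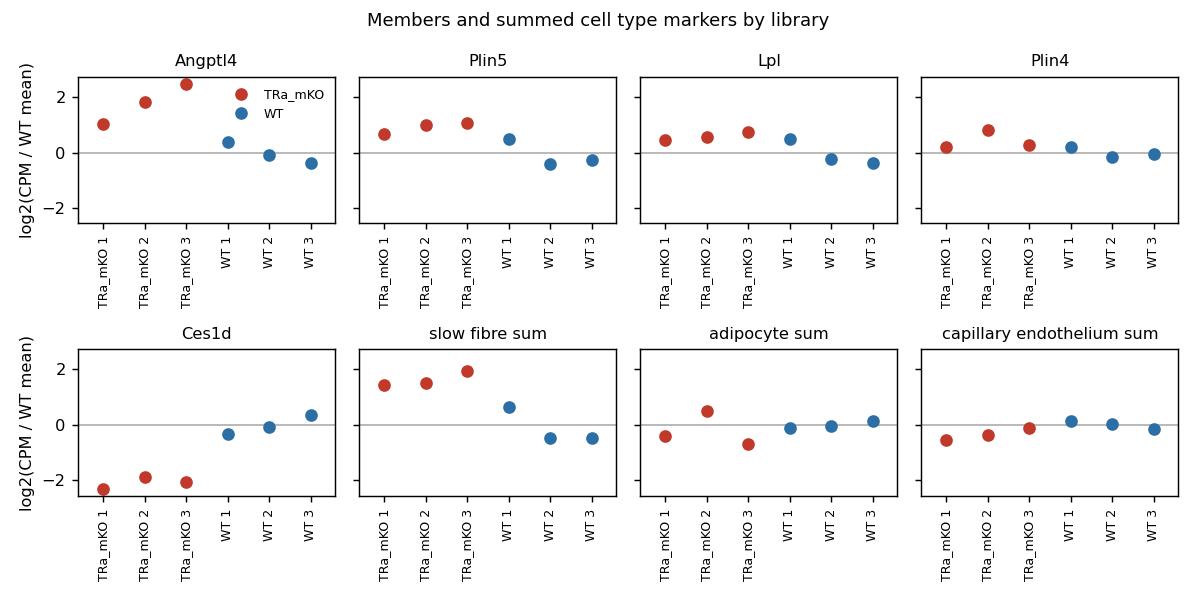
Level of 5 genes and 3 summed marker lists in each library, as log2 of CPM over the mean of the WT libraries, with libraries labelled TRa_mKO at the left. WT replicate 1 is the highest WT library for Angptl4, Plin5, Lpl, Plin4 and the slow fibre sum, and TRa_mKO replicate 2 is the highest library for Plin4 and the adipocyte sum.

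Levels of different genes were compared per kilobase of exon, as CPM per kilobase. The length was the union of all annotated exons of a gene, 10478 bases for Lpl and 3590 for Cd36. A union can exceed the length of the transcript present, so the order depends on this measure. In mean CPM, Lpl stood above Cd36 in libraries labelled TRa_mKO (1212 and 677) and in WT libraries (808 and 765). In libraries labelled TRa_mKO the order was Cd36 (189 ± 22.2), Lpl (116 ± 11.4), Pnpla2 (76.8 ± 10.3), Plin4 (76.4 ± 19.5), Mgll (19.9 ± 4.12), Plin5 (12.2 ± 1.79), Plin2 (9.25 ± 0.862), Lipe (6.28 ± 1.22), Angptl4 (3.04 ± 1.46) and Ces1d (2.57 ± 0.368), each in CPM per kilobase (SD, n = 3). In this order the ranges of Pnpla2 and Plin4, of Plin5 and Plin2, and of Angptl4 and Ces1d overlapped between neighbours, and all other neighbours were apart. In WT libraries Ces1d stood sixth of the 10 at 10.9 ± 2.64 CPM per kilobase, and Angptl4 stood last at 0.819 ± 0.216 CPM per kilobase. In WT libraries Lpl overlapped with Pnpla2 (77.1 ± 26.1 and 67.2 ± 4.71 CPM per kilobase), Pnpla2 overlapped with Plin4 (55.6 ± 7.37 CPM per kilobase), and Ces1d, Plin2, Plin5 and Lipe each overlapped with the next in that order.

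Among 13 tested partners of lipid uptake, 1 rose and 1 fell by edgeR (all tested genes: 2.52% and 1.65%). The median log2 fold change of the list was -0.11. Higher genes numbered 2 at an unadjusted p below 0.05, 1 by DESeq2 and 1 by limma-voom, and lower genes 1 by each measure. Slc27a1, the fatty acid transport protein FATP1 of muscle, averaged 143 ± 22.1 CPM in libraries labelled TRa_mKO and 68.3 ± 18.4 CPM in WT libraries, a 2.09-fold increase (SE of the log2 value 0.20, adjusted p = 0.0246). Vldlr, a receptor for triglyceride-rich lipoproteins, averaged 154 ± 10.1 CPM in libraries labelled TRa_mKO and 327 ± 22.1 CPM in WT libraries (log2 fold change -1.08, SE 0.10, adjusted p = 0.000446). Slc27a1 lost its call without TRa_mKO replicate 2 (adjusted p = 0.0788), TRa_mKO replicate 3 (0.0787) or WT replicate 3 (0.0916), and Vldlr kept it in all 16 alternatives. The list counted 3 calls without WT replicate 1, and 1 without TRa_mKO replicate 2, TRa_mKO replicate 3 or WT replicate 3.

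Of 17 tested partners of lipolysis and the droplet, Plin3 fell and 0 rose by edgeR (all tested genes: 1.65% and 2.52%). Higher genes numbered 0 also at an unadjusted p below 0.05, by DESeq2 and by limma-voom. Lower genes numbered 5 at an unadjusted p below 0.05, 1 by DESeq2 and 1 by limma-voom. The median was -0.12. Lipa, the lysosomal acid lipase, averaged 13.2 ± 2.02 CPM in libraries labelled TRa_mKO and 17.6 ± 1.53 CPM in WT libraries (adjusted p = 0.125). Hsd17b11, a droplet dehydrogenase, averaged 18.3 ± 1.24 CPM in libraries labelled TRa_mKO and 22.7 ± 2.06 CPM in WT libraries (adjusted p = 0.139).

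Of 15 tested genes of triglyceride synthesis, Lpin1 fell and 0 rose by edgeR (all tested genes: 1.65% and 2.52%), with a median of 0.10. For increases, 3 had an unadjusted p below 0.05, DESeq2 called 2 and limma-voom 0. Lpin1, a phosphatidate phosphatase that makes diacylglycerol, averaged 153 ± 36.5 CPM in libraries labelled TRa_mKO and 299 ± 31.6 CPM in WT libraries (log2 fold change -0.97, SE 0.17, adjusted p = 0.0141). It did not pass without TRa_mKO replicate 2 (adjusted p = 0.0580). Gpat3, a glycerol phosphate acyltransferase, averaged 8.05 ± 0.702 CPM in libraries labelled TRa_mKO and 4.59 ± 1.31 CPM in WT libraries (adjusted p = 0.0587). Dgat2, which adds the last acyl chain, averaged 52.6 ± 9.72 CPM in libraries labelled TRa_mKO and 31.3 ± 9.89 CPM in WT libraries (adjusted p = 0.139). The list counted 3 calls without WT replicate 1 and 0 without TRa_mKO replicate 2.

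Of 14 tested genes of the hormonal control of lipolysis, 2 rose and 0 fell by edgeR (all tested genes: 2.52% and 1.65%). The median of the list was 0.08. Higher genes numbered 5 at an unadjusted p below 0.05, 3 by DESeq2 and 2 by limma-voom, and lower genes 1, 0 and 0 by the same measures. Pde3b, the phosphodiesterase through which insulin restrains lipolysis in fat cells, averaged 7.94 ± 0.812 CPM in libraries labelled TRa_mKO and 4.07 ± 0.521 CPM in WT libraries (log2 fold change 0.96, SE 0.16, adjusted p = 0.0114). Npr3, the clearance receptor of natriuretic peptides, averaged 12.5 ± 3.22 CPM in libraries labelled TRa_mKO and 6.49 ± 0.957 CPM in WT libraries (0.95, SE 0.20, adjusted p = 0.0285). Npr3 passed without TRa_mKO replicate 1 and lost its call when any other single library was left out (adjusted p = 0.0550 to 0.0961). Pde3b lost its call without TRa_mKO replicate 2 (0.0644). The list counted 1 call without TRa_mKO replicate 3, WT replicate 1, WT replicate 2 or WT replicate 3, and 0 without TRa_mKO replicate 2.

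Of 23 tested PPAR receptors and genes that respond to them, 5 rose and 0 fell by edgeR (all tested genes: 2.52% and 1.65%). The median of the list was 0.43. Higher genes numbered 11 at an unadjusted p below 0.05, 9 by DESeq2 and 4 by limma-voom, and lower genes 2, 0 and 0 by the same measures. Without the library highest in adipocyte markers of each genotype, edgeR called 0 of the list. That fit had fewer samples and called 71 genes in all, against 547 with all libraries. In it the log2 fold changes of the 5 were 0.93 (Ppara), 0.63 (Cpt1b), 0.52 (Slc25a20), 0.64 (Hadha) and 0.53 (Ech1). Ppara, the receptor that drives fatty acid oxidation genes, averaged 22.1 ± 2.54 CPM in libraries labelled TRa_mKO and 10.8 ± 0.429 CPM in WT libraries (log2 fold change 1.03, adjusted p = 0.00130). Cpt1b, which commits fatty acids to entry into muscle mitochondria, averaged 537 ± 24.8 CPM in libraries labelled TRa_mKO and 321 ± 34.7 CPM in WT libraries (0.74, adjusted p = 0.00581), and Slc25a20, the carnitine carrier, averaged 112 CPM in libraries labelled TRa_mKO and 73.9 CPM in WT libraries (0.60, SE 0.11, adjusted p = 0.0145). The others that rose were Hadha, the alpha subunit of the mitochondrial trifunctional protein (348 ± 32.5 CPM in libraries labelled TRa_mKO and 236 ± 20.0 CPM in WT libraries, adjusted p = 0.0219), and Ech1, an isomerase of unsaturated fatty acid oxidation (313 ± 33.6 and 199 ± 43.4 CPM in the same order, adjusted p = 0.0462). Angptl4, Plin2, Plin5, Cd36 and Lpl are textbook PPAR targets too, and of these edgeR called Angptl4. Slc25a20 did not pass without TRa_mKO replicate 2, WT replicate 2 or WT replicate 3 (adjusted p = 0.0559 to 0.0708), Hadha did not pass without TRa_mKO replicate 3, WT replicate 2 or WT replicate 3 (adjusted p = 0.0561 to 0.0861), and Ech1 passed without WT replicate 1 but not without any other single library (0.0507 to 0.153). The list counted 9 calls without WT replicate 1, 3 without TRa_mKO replicate 2, TRa_mKO replicate 3 or WT replicate 2, and 2 without WT replicate 3.

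**Figure D5:**
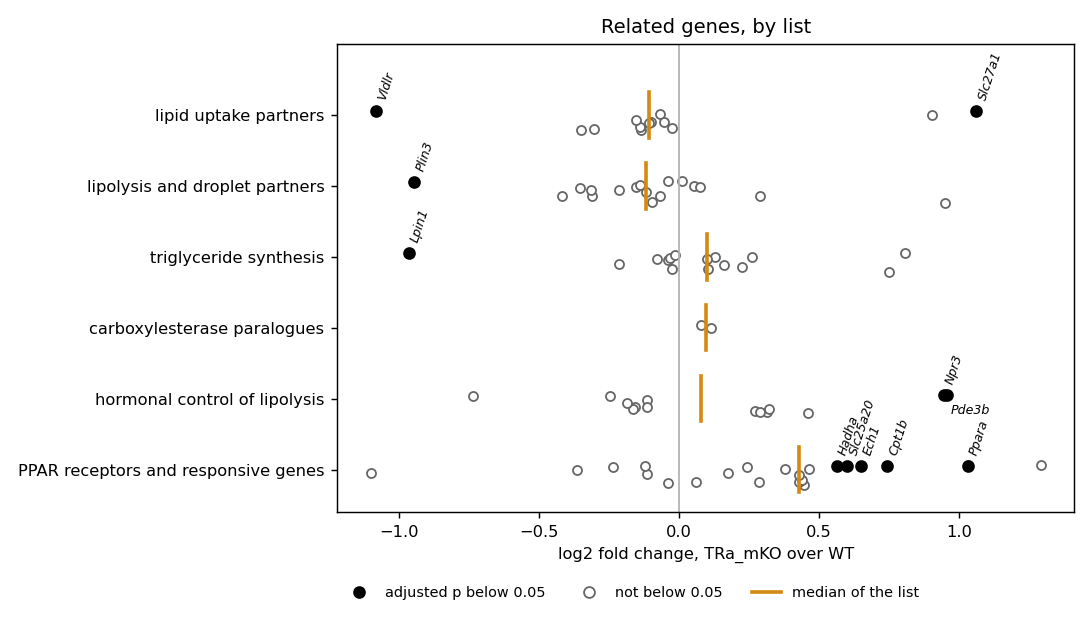
Log2 fold change, TRa_mKO over WT, of every tested gene in 6 lists of related genes; filled, labelled points had an adjusted p below 0.05 and the orange bar is the median of the list. The median lies at 0.43 in the PPAR list and between -0.12 and 0.10 in the other 5.

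The genes whose profiles lay nearest to those of the called genes were found by the Euclidean distance of mean-centred log2 CPM over the 6 libraries. The 10 genes themselves, genes of low mean level and genes with clone-like symbols were left out of this search. The genotype difference stayed in these profiles, so genes with a like fold change lie near a called gene by construction. Nearest to Angptl4 were Idh2, the mitochondrial isocitrate dehydrogenase (distance 0.654), and the slow myosin light chain genes Myl2 and Myl3 (0.714 and 0.784). Idh2 averaged 898 ± 179 CPM in libraries labelled TRa_mKO and 294 ± 69.9 CPM in WT libraries. Nearest to Ces1d were the protease gene Htra4 (0.743), the prolyl hydroxylase gene Egln3 (0.843) and the secretin receptor gene Sctr (0.877). Egln3 averaged 10.3 ± 0.834 CPM in libraries labelled TRa_mKO and 33.1 ± 4.34 CPM in WT libraries.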

How the data were processed

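Polyadenylated RNA of 6 gastrocnemius muscles was sequenced paired-end from dUTP-stranded libraries, per the labels' protocols, and all libraries carry batch 1. The authors deposited a single gene table whose columns are read counts per the file headers. Since some entries are fractional, these deposited values were handled as estimated counts, not normalized by the authors as far as the totals show. Tools named by the submitters' processing notes are FastQC 0.11.9, MultiQC 1.12, Trimmomatic 0.39 and featureCounts, with builds mm10, GRCm38.p6 and GRCm39. The sources used here give no aligner, annotation or strand setting. Between 9.65% and 10.0% of a library's values were not whole, and values were rounded. Value columns without a sample numbered 0.

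Genes were kept by filterByExpr (minimum count 10), scaled by TMM, and compared in edgeR 4.0.16 (R 4.3.3) by its robust quasi-likelihood F-test, two-sided, on the whole table with genotype as the model. A Benjamini-Hochberg adjusted p below 0.05 counted as a call. The common biological coefficient of variation was 11.8%. Apart from the details of mice, protocols and batch given here, the labels do not describe how replicates were collected. Each p-value sets the genotype difference against the spread between libraries of the same genotype. Litter was not part of the model. Alternatives, 16 in all, used DESeq2 1.42.0, limma-voom (limma 3.58.1), other scalings and filters, a replicate block, and libraries or shared-read genes left out. Calls were tested on simulated data in which every gene had the same biological coefficient of variation, so genes with a wider spread were not covered. Exon lengths were unions of GENCODE vM21 exons. Python 3.11.15 made tables and figures.

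Named genes were the 10, called genes of each list with up to 2 more of smallest p where fewer than 2 were called, Thra, and the 3 nearest profiles of each called gene. Members and lists were chosen with earlier results of these data known.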

Additional observations from a re-analysis of the deposited data

How the results depend on the processing

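Of 160 values of the 10 genes under the alternatives, 140 kept their direction and their side of the threshold, 9 (all of Angptl4) lost the call, 7 (Lpl and Plin5) gained one and 4 turned in sign without a call (Lipe and Mgll). On the log2 scale Lipe was -0.12 without the adipocyte-rich libraries, and ranged from -0.038 (without TRa_mKO replicate 2) to 0.25 when 1 library was left out. Mgll ranged from -0.23 to 0.13 (without WT replicate 1), and was 0.06 without TRa_mKO replicate 1. Of 176 values of called list genes, 138 kept their call and 38 lost it. Angptl4 also missed with library sizes alone (adjusted p = 0.0541), without a filter (0.0670) and with limma-voom (0.0531).

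Leaving out 1 library at a time gave 209 to 595 calls over all genes (135 to 331 higher, 74 to 264 lower), 1 to 3 among the 10 genes, 1 to 3 for uptake partners, 0 to 3 for triglyceride synthesis, 2 to 9 for PPAR genes and 0 to 2 for hormonal control. Scaling by library size alone turned the balance of calls: 213 genes higher and 255 lower (45.5% upward, against 60.5% with TMM), with 1 call among the 10, 1 uptake partner and 1 hormonal gene. Without a filter 632 genes were called (374 higher, 258 lower), with 1 call among the 10, 2 for triglyceride synthesis and 1 carboxylesterase. DESeq2 called 762 genes in all (461 higher, 301 lower), with 4 of the 10, 3 for triglyceride synthesis and 9 PPAR genes. Without the haemoglobin-rich libraries (TRa_mKO replicate 3, WT replicate 1), 267 genes were called (177 higher, 90 lower), with 4 of the 10 (Lpl adjusted p = 0.0290, Plin5 0.0107), 2 for triglyceride synthesis and 1 hormonal gene. Without the adipocyte-rich libraries, 71 were called (35 higher, 36 lower), with 1 of the 10, 1 uptake partner and 0 for triglyceride synthesis, PPAR and hormonal genes. These last fits had fewer samples, and no cause of the other shifts was tested.

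Same-numbered libraries did not deviate together (correlations across genes of -0.176, 0.000321 and -0.00565), and 0 of 3 libraries of either genotype correlated best with their own number. These values gave no sign that the numbers pair the samples, but 3 libraries a genotype are too few to exclude it. With the replicate block, 357 genes were called (216 higher, 141 lower), with 1 of the 10 and 1 uptake partner.

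Angptl4 had the largest SE of the 10 genes (0.38), with counts of 81 to 234 in libraries labelled TRa_mKO and 34 to 50 in WT libraries; the part of counting error in it was not tested.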
